A study of Mus musculus with 10 samples.

Results

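The genes described here are 9 of the 51789 genes counted in cardiomyocyte RNA on day 4 after myocardial infarction (MI): 7 that encode secreted inhibitors of Wnt signalling, namely Wif1, Sfrp1, Sfrp2, Sfrp4, Sfrp5, Frzb and Dkk2, and 2 that are direct targets of the pathway, Axin2 and Lef1. They were selected by symbol, with their TgGRK5-MI against NLC-MI values in these libraries already known, so their differences between groups are given as a description and support nothing. How many of them passed the thresholds used for all genes is given as counts, without p-values. Tests are read only for other genes of the pathway and for how the members varied among mice of the same group.

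Cardiomyocyte RNA was taken from 5 mice with cardiomyocyte-specific transgenic expression of GRK5 (TgGRK5-MI) and 5 non-transgenic littermate controls (NLC-MI), with 1 library per mouse. All 10 mice, controls included, had a surgical MI and were sampled on day 4, and sham-operated hearts were not among these libraries. The labels do not give the strain, the age, the sex or the promoter of the transgene for each library. Adult mice of both sexes were used in the work as a whole. The comparison asks how a high level of GRK5, a G protein-coupled receptor kinase, changed the cardiomyocyte transcriptome early after infarction.

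Wnt proteins are secreted ligands that bind Frizzled receptors and the co-receptors LRP5 and LRP6. In the canonical branch this stops the degradation of beta-catenin, which then enters the nucleus and activates genes together with TCF/LEF factors, whereas other branches act without beta-catenin. Secreted inhibitors work outside the cell: WIF1 and the secreted Frizzled-related proteins bind Wnt ligands, and Dickkopf proteins bind LRP5 and LRP6. In the adult heart the pathway is quiet, and its components are known to be re-expressed after infarction, several of them in fibroblasts of the healing wound.

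Libraries held from 7968779 to 23381527 counts, with medians of 20540815 for NLC-MI and 18337488 for TgGRK5-MI libraries. Levels are given in CPM, the share of a library's counts scaled to a fixed total, with library sizes adjusted by the TMM method, and 3 counts, the least taken here as detectable, corresponded to 0.121 to 0.392 CPM. Grk5 itself averaged 60.3 ± 9.49 CPM for NLC-MI and 1221 ± 472 CPM for TgGRK5-MI (SD over 5 mice), without overlap, so every library matched its label. The cardiomyocyte list (Myh6, Tnnt2, Tnni3, Actc1, Ttn, Myl2, Ryr2 and Pln) summed to between 46108 and 120962 CPM, and all 8 genes had counts in every library. RNA of other cells was present as well. The fibroblast list (Col1a1, Col1a2, Col3a1, Pdgfra, Dcn, Lum, Dpt and Tcf21) summed to between 3786 and 21281 CPM in the controls and between 3793 and 21921 CPM in TgGRK5-MI, so it spread widely within both groups and overlapped between them. Bmp10, an atrial gene, was at 0 in 7 libraries but had 472 counts in NLC-MI replicate 5 and 126 counts in TgGRK5-MI replicate 1. In such bulk samples, fewer cells of a type and less RNA per cell cannot be told apart.

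Of the 9 genes, 7 passed the filter on low counts, and Sfrp5 and Lef1 did not. Among the 7, the log2 fold change of TgGRK5-MI over NLC-MI was positive for 5 and negative for 2, with a median of 0.29 against 0.00 over all 15232 genes tested. Wif1 was the only 1 of the 7 with an unadjusted p under 0.05 (edgeR quasi-likelihood test), a threshold that 2.08% of all genes passed in the lower and 1.77% in the higher direction. It was also the only 1 whose groups did not overlap, which held in the lower direction for 0.42% of all genes. None of the 7 had an adjusted p under 0.10, which 0.0788% of all genes did, whereas DESeq2 gave 1, Wif1, beside 0.397% of the genes to which it gave an adjusted p. Because these values were known when the genes were chosen, nothing is read from these counts.

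**Figure D1:**
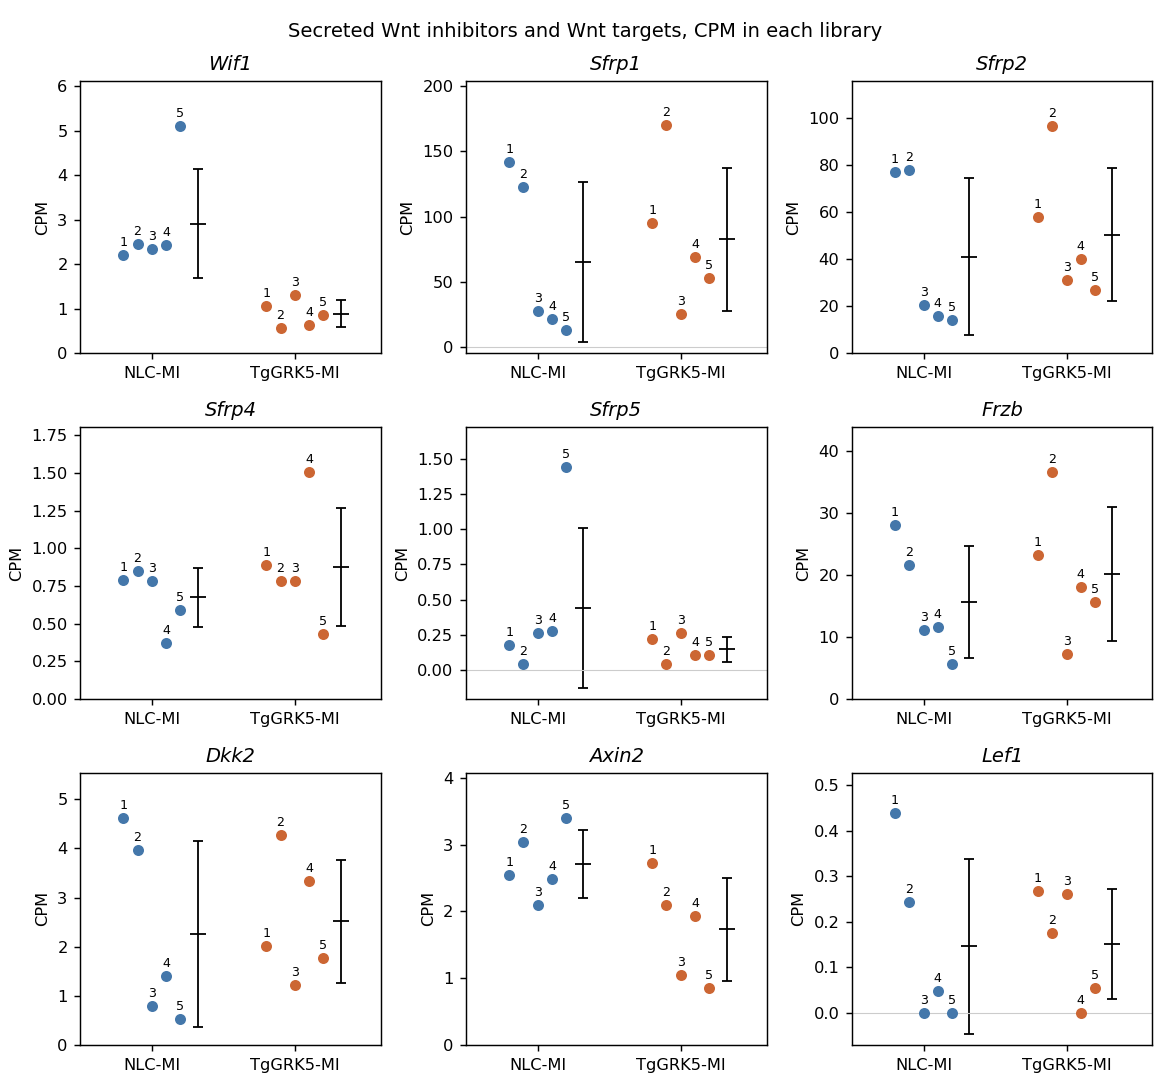
CPM of each of the 9 genes (vertical axes, each with its own linear scale) in the 5 NLC-MI and 5 TgGRK5-MI libraries. Points are libraries marked with their replicate number, and the black bar beside them is the mean ± SD of the group. Wif1 shows no overlap between the groups, with 2.20 to 5.10 CPM in the controls and 0.566 to 1.30 CPM in TgGRK5-MI, whereas Sfrp1, Sfrp2, Frzb and Dkk2 spread widely within both groups, which overlapped.

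The stretches of genome just before the start of 4 of these genes are shown first. They are those of Wif1, which was lower in every TgGRK5-MI library, Sfrp2 and Dkk2, which varied together among mice, and the target gene Axin2. No link between RNA levels and these sequences was tested. All are on the plus strand of GRCm38.p6 (RefSeq start sites, cut where needed at the GENCODE start of the same gene, without regard to exons of other genes). They lie at chr10:121033754-121033959 for Wif1, chr3:83766071-83766320 for Sfrp2, chr3:132085042-132085291 for Dkk2 and chr11:108920099-108920348 for Axin2. Capitals mark a match to TATAAA, the core of a TATA box, on either strand.
Wif1: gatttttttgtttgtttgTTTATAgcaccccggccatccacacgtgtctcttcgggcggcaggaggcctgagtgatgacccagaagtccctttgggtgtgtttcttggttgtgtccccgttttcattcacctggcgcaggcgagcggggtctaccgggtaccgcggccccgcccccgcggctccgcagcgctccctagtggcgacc
Sfrp2: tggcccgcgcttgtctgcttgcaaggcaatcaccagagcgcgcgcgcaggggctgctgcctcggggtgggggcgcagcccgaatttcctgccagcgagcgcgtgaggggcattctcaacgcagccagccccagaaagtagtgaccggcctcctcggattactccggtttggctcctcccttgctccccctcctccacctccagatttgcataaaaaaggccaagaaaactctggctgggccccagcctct
Dkk2: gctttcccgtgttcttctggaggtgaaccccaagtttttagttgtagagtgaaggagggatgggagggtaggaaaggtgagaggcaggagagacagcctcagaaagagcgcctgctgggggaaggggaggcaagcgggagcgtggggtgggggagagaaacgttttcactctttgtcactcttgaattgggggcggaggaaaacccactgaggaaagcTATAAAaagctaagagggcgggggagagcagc
Axin2: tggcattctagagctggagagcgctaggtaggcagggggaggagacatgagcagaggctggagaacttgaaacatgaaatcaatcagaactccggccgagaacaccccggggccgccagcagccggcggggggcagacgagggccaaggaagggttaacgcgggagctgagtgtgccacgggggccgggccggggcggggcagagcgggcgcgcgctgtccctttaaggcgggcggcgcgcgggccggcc

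In Dkk2 the match lay 32 to 27 bases upstream of the start. In Wif1 it was on the reverse strand, 232 to 227 bases upstream of the RefSeq start, which lies beyond the end of the stretch shown. TATAAA was found on either strand in 12.4% of 32851 RefSeq windows of 250 bases. TCAAAG, the core of the TCF/LEF site, was found in none of the 4 windows shown and in 13.8% of all windows. Of the 7 members with a RefSeq window, only Frzb and Lef1 had it. In Frzb it lay 95 to 90 bases upstream of the RefSeq start, and in Lef1 1 of the 4 windows held 2 matches. These matches lay inside the spans annotated for the 2 genes in GENCODE. Only the 21 most distant bases of the Frzb window lay before that gene's annotated start. The Lef1 window, at chr3:131156044-131156293, had 0 such bases. RefSeq windows matched 7 of the 9 genes, and Sfrp1 and Sfrp4, which had none, were not searched. Those of Wif1, Sfrp2 and Axin2 were rich in G and C, at 62.8%, 63.6% and 69.2% against a median of 52.4% over all windows, with 55.6% in Dkk2.

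Wif1 (ENSMUSG00000020218, chr10:121033960-121100650 on GRCm38) encodes a secreted protein that binds Wnt ligands directly and keeps them from their receptors. It was at 2.20, 2.47, 2.35, 2.44 and 5.10 CPM in NLC-MI replicates 1 to 5 and at 1.07, 0.566, 1.30, 0.645 and 0.858 CPM in TgGRK5-MI replicates 1 to 5. Every control library was above every transgenic one, and 4 of the 5 controls lay within a narrow band while replicate 5 stood well above it. The means were 2.91 ± 1.23 CPM (SD, n = 5) and 0.889 ± 0.303 CPM (SD, n = 5), a log2 fold change of -1.71 (SE 0.33), so that the mean in NLC-MI was 3.27-fold higher. Wif1 was a low gene, with 18 to 78 counts per library in NLC-MI and 6 to 24 in TgGRK5-MI. Without NLC-MI replicate 5 the control mean was 2.36 ± 0.120 CPM (SD, n = 4), which is 2.66-fold the TgGRK5-MI mean, and the log2 fold change was -1.42. Leaving out both libraries with many Bmp10 counts, 1 of which is NLC-MI replicate 5, gave -1.51.

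Marker levels are set beside this difference because Wif1 RNA need not come from cardiomyocytes. With the fibroblast level as a covariate, the log2 fold change of Wif1 was -1.63 (SE 0.27). The conduction tissue list (Hcn4, Tbx3, Shox2, Cacna2d2 and Cntn2) had its median in the same direction as Wif1, with sums of 14.2 to 31.4 CPM (median 19.8) in the controls and 10.9 to 18.1 CPM (median 11.9) in TgGRK5-MI, which overlapped, and all 5 genes had counts in every library. Of these 5, Hcn4, a pacemaker channel gene, was at 3.43, 5.66, 9.67, 3.75 and 8.63 CPM in NLC-MI and at 1.92, 1.26, 2.78, 1.72 and 1.13 CPM in TgGRK5-MI. Like Wif1, Hcn4 was lower in every TgGRK5-MI library than in any control, with a log2 fold change of -1.82 (SE 0.36), whereas the groups overlapped for the other 4 genes. Within groups Wif1 had r = 0.480 and rho = 0.321 with the list, which did not pass (exact permutation test, adjusted p = 0.365 and 0.541). The atrial list (Sln, Myl7, Myl4, Nppa, Stard10 and Bmp10) summed to 1241 to 3776 CPM in the controls and 1016 to 3501 CPM in TgGRK5-MI, a sum made up mostly of Nppa, which had a log2 fold change of -0.04 (SE 0.44). Other atrial genes were in the same direction as Wif1, with log2 fold changes of -1.27 (SE 0.55) for Myl7, -0.83 (SE 0.50) for Myl4 and -0.70 (SE 0.42) for Sln, against -0.10 (SE 0.38) for Stard10, and the groups overlapped for all of them. The cardiomyocyte list summed to 46108 to 120962 CPM (median 72277) in the controls and 48711 to 96929 CPM (median 61792) in TgGRK5-MI. Its log2 fold changes were negative for Ryr2 (-0.93, SE 0.30), Ttn, Myh6, Pln and Tnnt2. They were positive for Tnni3, Actc1 and Myl2 (0.35, SE 0.43). The groups overlapped for all 8 genes, and this list was left out of the correlations within groups. The part of cardiomyocyte, conduction and atrial RNA in the Wif1 difference was not tested.

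The secreted Frizzled-related proteins carry a domain like the ligand-binding part of the Frizzled receptors, and so can hold Wnt ligands away from them. Sfrp1 (chr8:23411502-23449632) was at 142, 122, 27.8, 21.3 and 12.7 CPM in NLC-MI replicates 1 to 5, and at 95.0, 170, 25.4, 69.2 and 53.1 CPM in TgGRK5-MI. Both groups held low and high libraries and overlapped, although the 2 lowest were controls and the highest was TgGRK5-MI, and the log2 fold change was 0.34 (SE 0.67). Sfrp2 (chr3:83766321-83774316) was at 77.0, 77.8, 20.5, 15.8 and 14.2 CPM in the controls and at 57.7, 96.2, 31, 40.1 and 26.6 CPM in TgGRK5-MI, a log2 fold change of 0.29 (SE 0.54). The 3 lowest libraries were controls, and the same mice were high as for Sfrp1, namely NLC-MI replicates 1 and 2 and TgGRK5-MI replicates 1 and 2. Frzb (chr2:80411970-80447625), which encodes the protein also called sFRP3, was highest in the same 4 libraries, with 28.1, 21.7, 11.1, 11.7 and 5.62 CPM in the controls and 23.3, 36.6, 7.29, 18.1 and 15.6 CPM in TgGRK5-MI. The log2 fold change of Frzb was 0.37 (SE 0.45).

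Sfrp4 (chr13:19623104-19632994) was a low gene in these cells, as was Sfrp5. It was at 0.375 to 0.849 CPM in the controls and at 0.429 to 1.51 CPM in TgGRK5-MI, on 6 to 21 counts per library, with a log2 fold change of 0.33 (SE 0.37). Sfrp5 (chr19:42197971-42202252) had 4, 1, 2, 6 and 22 counts in NLC-MI and 5, 1, 3, 1 and 2 in TgGRK5-MI, so most libraries were near the 3-count limit, and 22 of the 35 control counts came from NLC-MI replicate 5. No fold change is given for Sfrp5, which did not pass the filter.

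Dkk2 (chr3:132085292-132180304), a Dickkopf protein that binds LRP5 and LRP6, was at 4.62, 3.96, 0.784, 1.41 and 0.523 CPM in the controls and at 2.01, 4.27, 1.22, 3.33 and 1.77 CPM in TgGRK5-MI. The 2 lowest libraries were controls, the groups overlapped, and the log2 fold change was 0.10 (SE 0.55).

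Of the targets, Axin2 (chr11:108920349-108950783) encodes a scaffold of the complex that degrades beta-catenin, and its induction by Wnt signals makes it a negative feedback gene and a common readout of the canonical branch. Axin2 was at 2.55, 3.03, 2.09, 2.48 and 3.40 CPM in the controls and at 2.72, 2.09, 1.04, 1.94 and 0.858 CPM in TgGRK5-MI. The 3 lowest values were in TgGRK5-MI, but TgGRK5-MI replicate 1 lay above 3 of the controls, and the groups overlapped. The means were 2.71 ± 0.509 and 1.73 ± 0.774 CPM (SD, n = 5 each), with a log2 fold change of -0.64 (SE 0.32). Lef1 (chr3:131110471-131224356), a TCF/LEF transcription factor that is itself a target in several tissues, had 10, 6, 0, 1 and 0 counts in NLC-MI and 6, 4, 3, 0 and 1 in TgGRK5-MI. It was thus at or under the limit of 3 counts in 6 of 10 libraries, and no fold is given. Exons of Sfrp2, Axin2 and Lef1 overlapped genes on the opposite strand over 347, 209 and 1208 bases, and those genes held 4, 1 and 1 counts in all libraries together.

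Per kilobase of exon, the mean level over the 10 libraries was highest for Sfrp2, at 21.2 CPM per kb, followed by Sfrp1 at 16.9 and Frzb at 5.53 CPM per kb. Sfrp2 was above Sfrp1, and Sfrp1 above Frzb, in 10 of 10 libraries. Wif1 followed at 0.783, Dkk2 at 0.645 and Axin2 at 0.403 CPM per kb. The order of Wif1 and Dkk2 turned with the group. In NLC-MI the mean was 1.2 CPM per kb for Wif1 and 0.610 for Dkk2, with Wif1 above Dkk2 in 3 of 5 libraries, and in TgGRK5-MI it was 0.366 for Wif1 and 0.680 for Dkk2, with Wif1 above in 1 of 5. Dkk2 was above Axin2 in 7 of 10 libraries. Sfrp4 was at 0.186, Sfrp5 at 0.155 and Lef1 at 0.0169 CPM per kb. The secreted inhibitors therefore spanned a wide range of levels, and both targets were low.

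Variation among mice of the same group was tested next, since it does not use the difference that chose the genes. Each gene's log2 CPM, and the mean log2 CPM of each of 8 marker lists, was centred on the group mean, and the 2 were correlated over the 10 libraries with an exact two-sided permutation test within groups (14400 arrangements) and Benjamini-Hochberg adjustment over the 56 pairs of 7 genes and 8 lists. Of these pairs, 18 had an adjusted p under 0.10 for Pearson's r and 15 for Spearman's rho. The matching count over all genes was not made, so nothing is read from these 2 counts. For the pairs that passed by r, the share of all genes with an r at or above it is given below.

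Sfrp1, Frzb, Sfrp2 and Dkk2 rose and fell with fibroblast RNA from mouse to mouse. Sfrp1 followed the fibroblast list with r = 0.979 and rho = 0.964 (exact permutation test, adjusted p = 0.00467 and 0.00259). For Frzb, r was 0.961 and rho was 1 (exact permutation test, adjusted p = 0.00194 for both, from the smallest p that the permutations can give, 6.94e-05). Sfrp2 had r = 0.937 and rho = 0.806 (exact permutation test, adjusted p = 0.0167 and 0.0678). Dkk2 had r = 0.926 and rho = 0.927 (exact permutation test, adjusted p = 0.0110 and 0.00259). Few other genes followed the list as closely: 0.263%, 0.768%, 1.71% and 2.26% of all genes tested had an r at or above those of Sfrp1, Frzb, Sfrp2 and Dkk2. The list was made of collagen and other fibroblast genes and held none of the 9.

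The fibroblast level was not evenly spread. NLC-MI replicates 1 and 2 and TgGRK5-MI replicate 2 stood 0.929 to 1.02 above their group means on the log2 scale, and the other 7 libraries lay between -1.02 and 0.35. Without the 2 libraries farthest from the median, r was 0.969 for Sfrp1, 0.929 for Frzb, 0.888 for Sfrp2 and 0.890 for Dkk2. Over the 7 libraries left without the 3 high ones, r was 0.937 for Frzb (exact permutation p = 0.00694) and 0.914 for Sfrp1 (exact permutation p = 0.0278), but 0.696 for Dkk2 (exact permutation p = 0.0972) and 0.657 for Sfrp2 (exact permutation p = 0.236). Over the same 7 libraries rho was 0.964 for Frzb (exact permutation p = 0.0139) and 0.857 for both Sfrp1 and Dkk2 (exact permutation p = 0.0833). For Sfrp2 rho was 0.75 (exact permutation p = 0.139). By r, the relation of Sfrp2 and Dkk2 with fibroblast RNA was thus weaker over these 7 libraries, but by rank Dkk2 did not differ from Sfrp1. Fewer libraries and a narrower fibroblast range can lower r by themselves. Whether the relation rested on the 3 high libraries therefore cannot be told. The fibroblast level itself had r = 0.553 and rho = 0.612 with the total counts of the libraries within groups (exact permutation p = 0.130 and 0.085), and the part of depth in these relations was not tested.

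**Figure D2:**
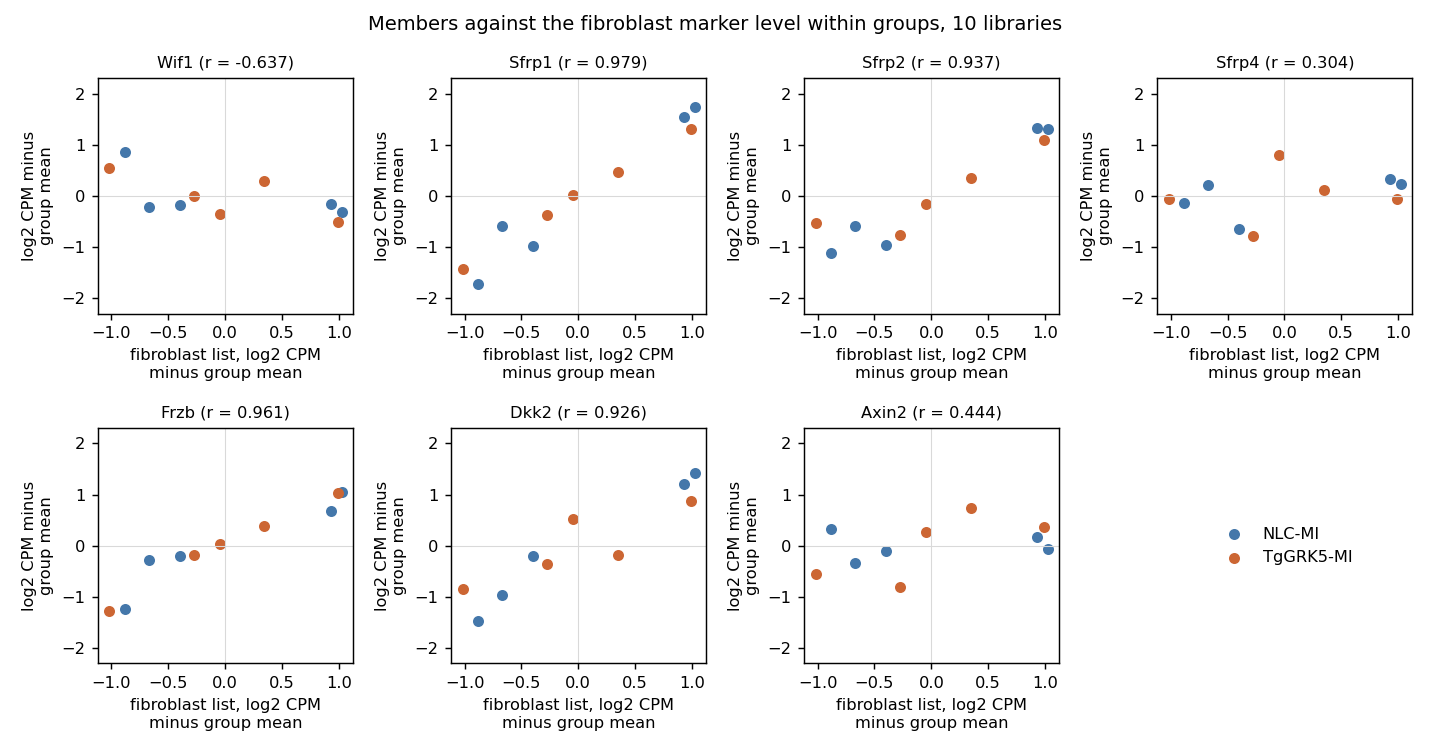
Log2 CPM of the 7 genes that passed the filter (vertical axes) against the mean log2 CPM of the fibroblast list (horizontal axes), both after subtracting the group mean, in 10 libraries coloured by group. Sfrp1, Sfrp2, Frzb and Dkk2 rise with the fibroblast level in both groups (r of 0.926 to 0.979), Sfrp4 and Axin2 scatter, and Wif1 tends the other way (r = -0.637).

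Sfrp1, Sfrp2, Frzb and Dkk2 also followed each other, with r of 0.865 to 0.959 and rho of 0.806 to 0.964 over their 6 pairs (exact permutation test, largest adjusted p = 0.0281 over the 21 pairs of the 7 genes). Without the 2 libraries farthest from the median these r were 0.625 to 0.981. Myofibroblast markers (Postn, Cthrc1, Fap, Acta2 and Tagln) and macrophage markers (Cd68, Adgre1, Csf1r, C1qa, C1qb and Lyz2) were compared in the same way. Sfrp1, Frzb, Dkk2 and Sfrp2 had r of 0.982, 0.978, 0.951 and 0.907 with the myofibroblast list (adjusted p = 0.00467, 0.00194, 0.00467 and 0.0190, exact permutation test). Of all genes tested, 0.204%, 0.322%, 1.46% and 4.10% had an r at or above these. With the macrophage list r was 0.892, 0.845, 0.919 and 0.855 in the same order (adjusted p = 0.0272, 0.0253, 0.0222 and 0.0585, exact permutation test). An r at or above these was found in 2.98%, 5.63%, 1.61% and 5.04% of all genes tested. For Sfrp2 with the macrophage list rho was 0.673 and did not pass (adjusted p = 0.219, exact permutation test). Without the 2 farthest libraries the r with the macrophage list were 0.799, 0.71, 0.867 and 0.721 (exact permutation p = 0.0729, 0.0816, 0.0312 and 0.175). The endothelial list (Pecam1, Cdh5, Kdr, Tie1, Tek, Egfl7 and Emcn) had r between -0.15 and 0.14 for the 4 genes, none of which passed. For the same genes r was between -0.03 and 0.19 with the atrial list. With the conduction tissue list it was between -0.67 and -0.48, and none of these passed either. The pericyte and smooth muscle list (Rgs5, Kcnj8, Myh11, Notch3, Cspg4 and Pdgfrb) passed for Sfrp1, Frzb and Dkk2 with r of 0.804 to 0.850. An r at or above theirs was found in 6.87%, 3.89% and 6.99% of all genes tested.

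**Figure D3:**
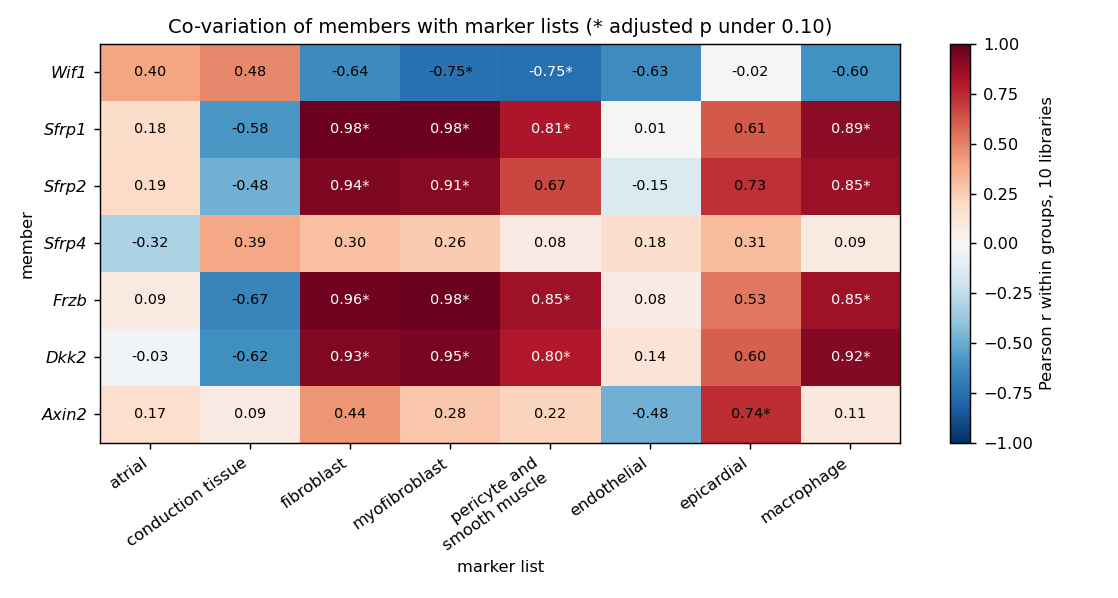
Pearson r within groups, over 10 libraries, of the 7 genes that passed the filter (rows) with 8 marker lists (columns), from blue (-1) to red (1), with a star where the adjusted p of the exact permutation test was under 0.10. Sfrp1, Sfrp2, Frzb and Dkk2 share stars for the fibroblast, myofibroblast and macrophage lists, Wif1 has stars only for negative r, and Sfrp4 has none.

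Wif1 went the other way from these inhibitors. Its r was -0.745 with the myofibroblast list and -0.753 with the pericyte and smooth muscle list (adjusted p = 0.0285 and 0.0492, exact permutation test), although rho was -0.636 and -0.624 and did not pass (adjusted p = 0.169 and 0.210, exact permutation test). Without the 2 libraries farthest from the median r was -0.609 and -0.603 (exact permutation p = 0.115 and 0.172). Of all genes tested, 90.2% and 91.5% had an r at or above -0.745 and -0.753 with these 2 lists, so r this low was not rare. With the fibroblast list Wif1 had r = -0.637 and rho = -0.624, which did not pass (adjusted p = 0.142 and 0.202, exact permutation test). The myofibroblast list summed to 514 to 4522 CPM in the controls and 1052 to 4457 CPM in TgGRK5-MI. Its part in the difference of Wif1 between groups was not tested.

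Axin2 did not share the relation of the 4 inhibitors with the fibroblast list. It had r = 0.444 and rho = 0.442 with the fibroblast list (adjusted p = 0.358 and 0.374, exact permutation test) and passed only with the epicardial list (Wt1, Upk3b, Upk1b, Msln and Krt19), with r = 0.739 and rho = 0.758 (adjusted p = 0.0287 and 0.0553, exact permutation test). Without the 2 farthest libraries that r was 0.621 (exact permutation p = 0.120). An r at or above 0.739 with the epicardial list was found in 2.74% of all genes tested. The 4 inhibitors also had positive r with this list, 0.613 for Sfrp1, 0.727 for Sfrp2, 0.528 for Frzb and 0.600 for Dkk2. None of these passed (adjusted p of 0.102 to 0.287, exact permutation test). Without the 2 farthest libraries they were 0.797, 0.828, 0.724 and 0.551. The epicardial level had r = 0.692 and rho = 0.745 with the total counts (exact permutation p = 0.0510 and 0.0267). Sfrp4 passed with none of the 8 lists, with r between -0.32 and 0.39, at 6 to 21 counts per library.

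The covariate changed how precisely the 4 fibroblast-following genes could be compared. With the fibroblast level in the fit, the SE of the log2 fold change went from 0.67 to 0.17 for Sfrp1, from 0.54 to 0.21 for Sfrp2, from 0.45 to 0.17 for Frzb and from 0.55 to 0.27 for Dkk2. The log2 fold changes in that fit were 0.43, 0.38, 0.22 and 0.21, and that of Axin2 was -0.71 (SE 0.31). Without the 2 libraries with many Bmp10 counts they were 0.02, 0.02, 0.09 and -0.07 for the 4 inhibitors and -0.79 for Axin2. The direction of the small differences of Sfrp1, Sfrp2 and Dkk2 therefore depended on which libraries were used: leaving out 1 library at a time gave -0.11 to 0.83, -0.08 to 0.66 and -0.19 to 0.51.

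The rest of the pathway was tested with the same fit. Of 92 other genes listed by role, 66 passed the filter and 4 had no counts. None had an adjusted p under 0.10 in the edgeR quasi-likelihood test, nor in DESeq2 or limma-voom, and at an unadjusted p under 0.05 none was higher and 2 were lower in TgGRK5-MI, beside the 1.77% and 2.08% of all genes given above. In all, 20 had a positive and 46 a negative log2 fold change, with a median of -0.07. Over all 15232 genes tested, 7649 were positive and 7583 negative. Whether the 66 shared a direction was not tested.

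Of 19 Wnt ligands only 6 passed the filter. The highest per kilobase were Wnt9a at 2.13 and Wnt5b at 1.98 CPM per kb. Wnt5a, a ligand best known for signalling without beta-catenin, was at 9.15, 8.57, 11.6, 8.15 and 8.95 CPM in the controls and at 7.86, 6.14, 5.64, 4.84 and 3.75 CPM in TgGRK5-MI. The groups did not overlap, though TgGRK5-MI replicate 1 came close to NLC-MI replicate 4. Its log2 fold change was -0.71 (SE 0.21). The edgeR quasi-likelihood test gave an unadjusted p of 0.00604 and an adjusted p of 0.859, so it did not pass after adjustment. Porcn and Wls, which acylate and carry Wnt ligands for secretion, had log2 fold changes of 0.22 and -0.11, and Wls was the higher at 10.5 CPM per kb.

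Receptors were well represented, with 14 of 15 tested and log2 fold changes from -0.36 to 0.33. The co-receptor Ryk and the Frizzled receptor Fzd4 were the highest, at 15.7 and 10.4 CPM per kb, with log2 fold changes of 0.08 (SE 0.14) and -0.12 (SE 0.14). Among R-spondins and genes of receptor turnover 4 of 9 were tested, and the R-spondin receptors Lgr6 and Lgr4 were highest at 5.24 and 3.84 CPM per kb, with log2 fold changes of 0.02 (SE 0.30) and -0.16 (SE 0.14). None of these 18 genes had an unadjusted p under 0.05.

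Of 10 further extracellular inhibitors 4 were tested. Kremen1, a receptor that removes LRP6 from the surface together with Dickkopf proteins, was at 103, 146, 105, 174 and 143 CPM in the controls and at 119, 93.2, 89.8, 66.8 and 98.0 CPM in TgGRK5-MI. The TgGRK5-MI libraries were lower except for replicate 1, which lay above 2 controls. Its log2 fold change was -0.52 (SE 0.19). The edgeR quasi-likelihood test gave an unadjusted p of 0.0181 and an adjusted p of 1.00, and without NLC-MI replicate 4 the log2 fold change was -0.41 with an unadjusted p of 0.0541. Dkk3 was at 22.2 ± 15.4 and 20.8 ± 15.9 CPM (SD, n = 5 each), and its log2 fold change was -0.09 (SE 0.59).

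Inside the cell, all 16 cytoplasmic components and all 12 nuclear components were tested, and none had an unadjusted p under 0.05. Ctnnb1, which encodes beta-catenin, averaged 432 ± 71.4 CPM for NLC-MI and 487 ± 130 CPM for TgGRK5-MI (SD over 5 mice), with a log2 fold change of 0.17 (SE 0.21). Gsk3a, a kinase that marks beta-catenin for degradation, was at 98.7 ± 35.1 and 121 ± 55.7 CPM (SD, n = 5 each), and its log2 fold change was 0.29 (SE 0.31). Of the cytoplasmic genes 13 and of the nuclear genes 10 had a negative log2 fold change, with medians of -0.07 and -0.17. These counts of direction were not tested. Ctnnbip1, an inhibitor of the binding of beta-catenin to TCF factors, and Bcl9l, a co-activator of beta-catenin, had log2 fold changes of -0.14 (SE 0.14) and -0.31 (SE 0.20).

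Of 9 other genes known as targets 8 were tested, with log2 fold changes from -0.33 to 0.38 and a median of 0.00. Ccnd1, which encodes cyclin D1, was at 110 ± 26.1 and 111 ± 23.3 CPM (SD, n = 5 each), and its log2 fold change was 0.02 (SE 0.20). The surface receptor gene Cd44 was at 60.7 ± 25.7 and 59.0 ± 21.4 CPM (SD, n = 5 each), and its log2 fold change was -0.04 (SE 0.32). None of the 8 had an unadjusted p under 0.05.

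**Figure D4:**
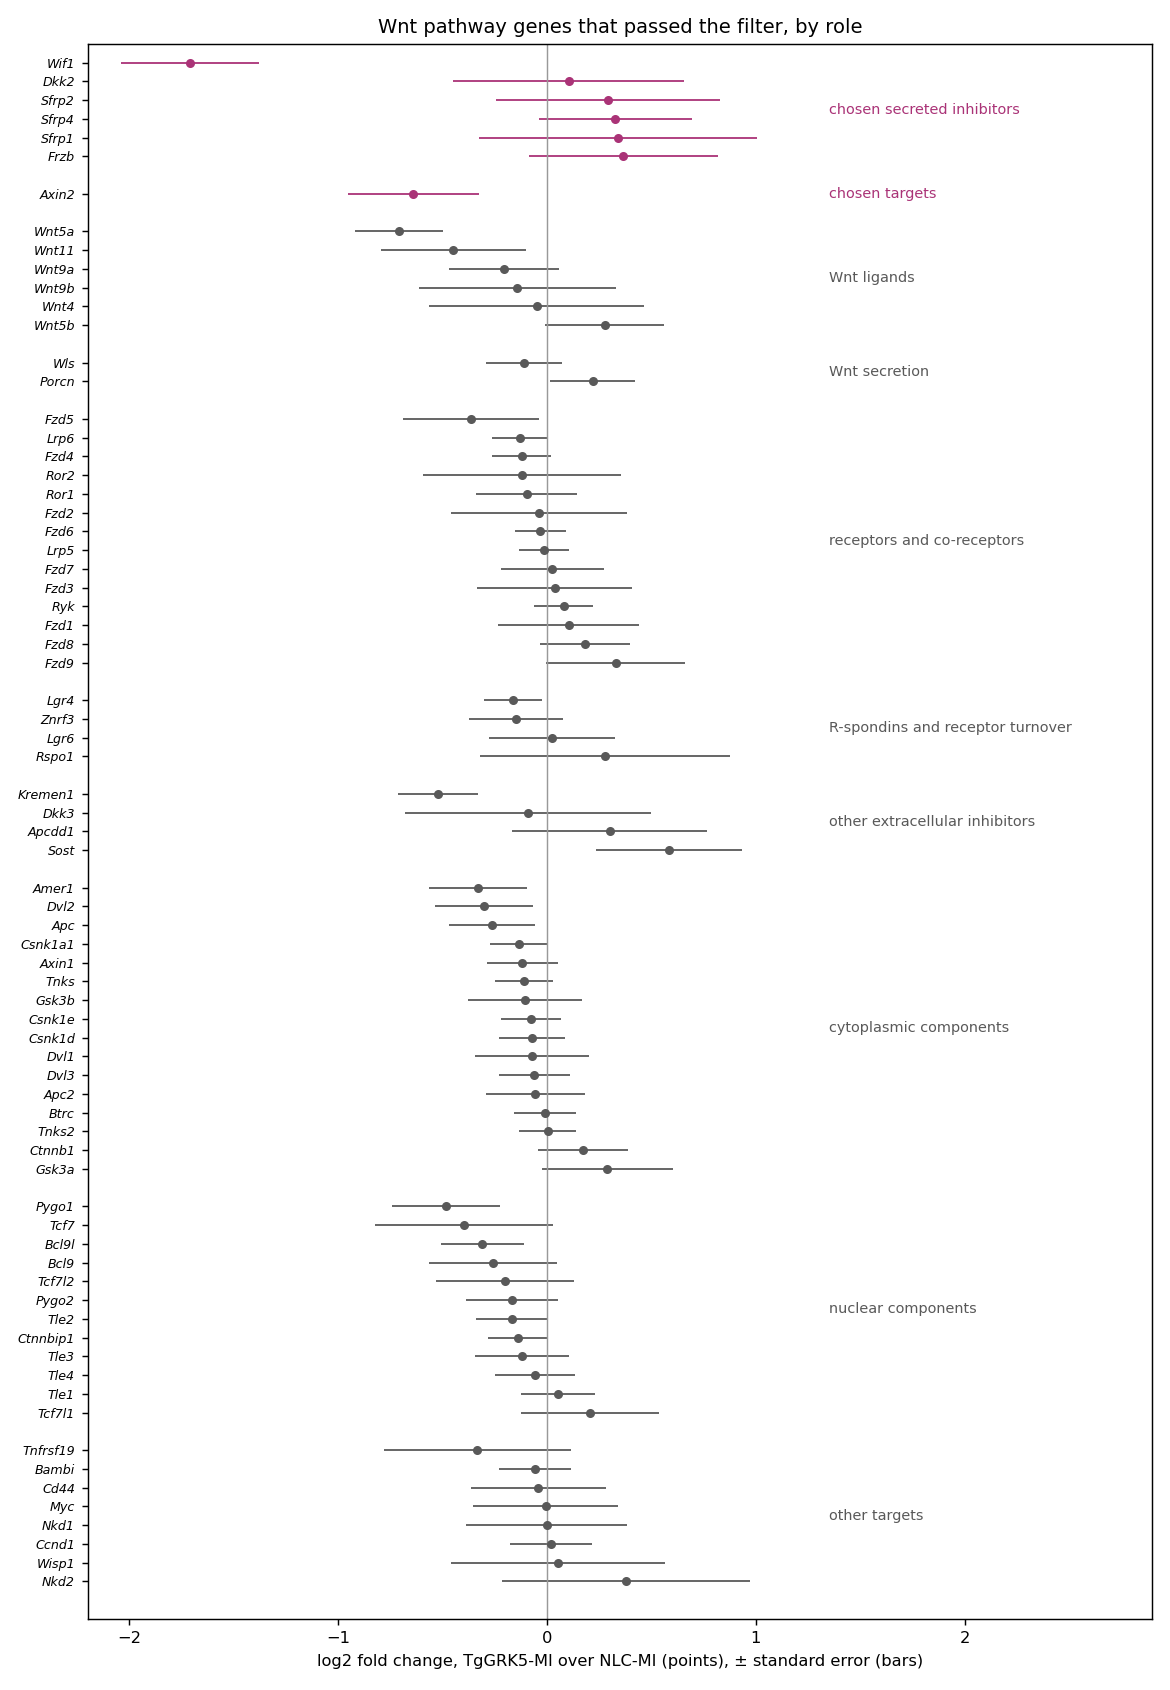
Log2 fold change of TgGRK5-MI over NLC-MI (points) with its SE (bars, horizontal axis) for the 7 chosen genes (purple) and the 66 other pathway genes (grey) that passed the filter, grouped by role. Wif1 at -1.71 lies outside the range of the other pathway genes, which runs from -0.71 for Wnt5a to 0.58.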

How the data were processed

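Cardiomyocyte libraries of 5 TgGRK5-MI and 5 NLC-MI mice were analysed, 1 per mouse, with groups and replicate numbers from the labels. The authors deposited whole-number counts per Ensembl gene, not normalized. The submitters' processing notes name Bowtie2, RSEM 1.2.31, DESeq2 and mm10. The strand setting and annotation version are not given in the sources used here, and the notes do not say whether estimated counts were rounded, so reads of overlapping or near-identical genes may have been split. GENCODE M21 on GRCm38 held 51596 of 51789 identifiers and gave symbols, positions and exon lengths.

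In R 4.3.3 with edgeR 4.0.16, counts were TMM-normalized, filtered with filterByExpr (15232 of 28506 genes with counts) and compared with the quasi-likelihood F test, group only, with Benjamini-Hochberg adjustment over all of them. Genes were called at an adjusted p under 0.10, as in the study, and counted at an unadjusted p under 0.05. The SE of a log2 fold change is its absolute value divided by the square root of the F statistic. Log2 CPM used a prior count of 2. The scripts were tested on simulated counts. The limit of 3 counts covers counting error only.

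The members, the pathway and marker lists and the naming rule were chosen with earlier results of these data known. The rule names every member and Grk5, and in each role the genes with an unadjusted p under 0.05 and the 2 highest per kilobase. For each tested member it adds the 2 genes with the most similar pattern. Alternatives were DESeq2 1.42.0, limma-voom (limma 3.58.1), RLE size factors, library size alone, a minimum of 10 counts in every library, no filter, the replicate block, each library left out and, for correlations, a prior count of 0.5. Those with the fibroblast covariate, without the 2 libraries with over 100 Bmp10 counts, without the 3 libraries high in fibroblast RNA, and the correlations among members and with total counts were added after the data were seen. RefSeq promoter windows (GRCm38.p6) were searched on both strands.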

Additional observations from a re-analysis of the deposited data

Results flagged for a closer look

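Groups of 5 libraries were searched in 40 tests for a value far from the other 4 (Dixon's test at the 95% level, ratio above 0.71). In these tests 3 values in 2 libraries stood apart. Chance alone gives about 1 in 20 where values are normally distributed. CPM of low genes need not be, so nothing is read from this count. Wif1 was at 5.10 CPM in NLC-MI replicate 5 against 2.20 to 2.47 CPM in the other controls (gap over range 0.908). Sfrp5 was at 1.44 CPM in the same library against 0.0404 to 0.281 CPM in the others (0.828). That library also held 472 counts of the atrial gene Bmp10, and what part this had in either value was not tested. Wnt5a was at 11.6 CPM in NLC-MI replicate 3, the library with the fewest counts, against 8.15 to 9.15 CPM in the others (0.713).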

How the results depend on the processing

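The log2 fold change of Wif1 was -1.87 to -1.42, that of Axin2 -0.89 to -0.46, that of Frzb 0.04 to 0.67 and that of Sfrp4 0.10 to 0.51 over all alternatives, so these 4 kept their direction. Sfrp1 and Sfrp2 each changed sign under 1 alternative and Dkk2 under 6. The number of members with an adjusted p under 0.10 went from 0 to 1 (Wif1) with library size alone, with DESeq2 and with the fibroblast covariate, settings in which 18, 69 and 30 of all genes passed against 12. The number with an unadjusted p under 0.05 went from 1 to 2 with limma-voom and without the 2 libraries with Bmp10 counts (Wif1 and Axin2), to 3 with the covariate (Wif1, Sfrp1 and Axin2) and to 0 with at least 10 counts in every library, a filter that Wif1 does not pass. Of all genes, 586 passed that threshold in the fit as reported, 573 with limma-voom, 674 without those 2 libraries and 1049 with the covariate. With 1 library left out it was 1 to 2, the latter without TgGRK5-MI replicate 1. Of the other pathway genes, those lower at an unadjusted p under 0.05 went from 2 to 5 with the covariate, where Wnt11, Fzd5 and Dvl2, named after their values were seen, joined Wnt5a and Kremen1. With 1 library left out there were 1 to 3, the 1 being without NLC-MI replicate 4, and no alternative gave any an adjusted p under 0.10. The pairs of members and marker lists with an adjusted p under 0.10 fell from 18 to 5 without the 2 farthest libraries, a test with fewer libraries, and were 13 to 19 with 1 library left out.

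The labels do not say whether mice that share a replicate number were paired. Deviations of libraries that share a number correlated at 0.0717, 0.662, 0.381, -0.341 and 0.0848, with a mean of 0.172. Other pairs of libraries averaged -0.0274, from -0.606 to 0.731, and so few values cannot settle whether the numbers mark pairs. A replicate block took the SE of Sfrp1 from 0.67 to 0.38 and that of Sfrp2 from 0.54 to 0.24. In the fit with a replicate block, Wif1 was at -1.70, Axin2 at -0.71, Sfrp1 at 0.70, Sfrp2 at 0.55, Frzb at 0.40, Dkk2 at 0.39 and Sfrp4 at 0.31, with 1 member and 3 lower pathway genes at an unadjusted p under 0.05 and 0 of either at an adjusted p under 0.10.

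Depth limits Sfrp5, Lef1 and, at 6 to 24 counts per TgGRK5-MI library, the size of the Wif1 difference.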

Other observations

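The genes whose pattern among mice of the same group was most like that of each member are given as values, over 10 libraries and among 14120 genes with a mean of at least 1 CPM (14121 for Sfrp4). For Wif1 they were Bckdhb (r = 0.982) and Auh (r = 0.976), which encode mitochondrial enzymes of branched-chain amino acid breakdown. For Sfrp1 they were Tgfb3 (r = 0.995), a transforming growth factor beta ligand, and Ntn4 (r = 0.991), a netrin. For Frzb they were Hs6st2 (r = 0.992), a heparan sulfate sulfotransferase, and Dclk1 (r = 0.988). For Sfrp2 they were Mdk (r = 0.983), the growth factor midkine, and Aplp1 (r = 0.982). For Dkk2 they were Brsk1 (r = 0.986) and Gpr137b (r = 0.983). For Sfrp4 they were Phf21b (r = 0.967) and Efna2 (r = 0.945), and for Axin2 they were 2700049A03Rik (r = 0.964) and Pcdhb19 (r = 0.906). As the 2 highest of many genes, these r have no test.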
